A study of Mus musculus with 12 samples.

Results

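Carbonic anhydrases are zinc enzymes that turn carbon dioxide and water into bicarbonate and a proton, and back again. The 10 genes described here were Car2, Car3, Car4, Car5a, Car5b, Car9, Car12, Car13, Car14 and Car15, out of 24421 gene symbols in the expression tables. They were chosen by name, with earlier results of these data known, and the transcript row kept for each symbol was selected on the largest total count over the 12 libraries. This choice mattered only for Car12, the one gene of the 10 with a second row, whose rows had total counts of 189905 and 189548.5. The kidney uses these enzymes to recover filtered bicarbonate in the proximal tubule and to secrete acid from the intercalated cells of the collecting duct. The family members differ in where they sit: some are dissolved in the cytosol, some face the tubule fluid or the space around the cell from the outer side of the plasma membrane, and a pair works inside mitochondria, where bicarbonate feeds carboxylases.

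The transcripts were measured by RNA-seq of whole kidneys from male mice at 6 weeks of age, in 4 groups of 3 libraries. The strain is labelled C57BL/6, and the methods give the breeding pairs a C57BL/6J background. The groups were wild-type mice (WT) labelled as healthy controls, Tet2-/- mice labelled as healthy controls, WT mice after renal ischemia-reperfusion (IR) and Tet2-/- mice after IR. In the IR groups the pedicle of the right kidney was clamped for 60 min, the left kidney was removed, and tissue was taken after 24 h, whereas no sham-operated library was analysed here, so ischemia cannot be told apart from the operation and the loss of the other kidney. Tet2 encodes an enzyme that oxidises 5-methylcytosine in DNA, and the knockout was present in the whole body, blood cells included. Libraries held 51007362 to 107969879 counts over 1 row per symbol, and all 15 proximal tubule marker genes were at 1 FPKM (fragments per kilobase of transcript, scaled to the library's mapped total) or more in every library.

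The targeted transcript did not mark the knockout at baseline. Tet2 was at 9.15, 6.25 and 7.33 FPKM in the WT baseline libraries and at 9.25, 16.6 and 10.3 FPKM in those labelled Tet2-/-, which were all higher. After IR it was at 9.34, 3.97 and 3.86 FPKM in WT and at 2.64, 3.20 and 1.76 FPKM in Tet2-/-, all lower (log2 fold change -1.28, adjusted p = 0.069). The genotype is therefore taken from the labels, and the deleted exon was not examined. Differences below are log2 fold changes from edgeR's quasi-likelihood test with their standard error (SE), Benjamini-Hochberg adjusted over all genes tested, and a gene was called changed when its adjusted p was under 0.05 and its log2 fold change was beyond 1 in either direction. The study describes the libraries of a group as kidneys from replicate mice, but the labels name no animal, so the tests are read as measuring the spread between these libraries.

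In the uninjured kidney Car4 and Car2 were the most abundant of the 10 transcripts per unit of length. Their mean levels in WT were 132 ± 37.3 and 110 ± 23.6 FPKM (SD, n = 3), and the libraries overlapped, so the order between them was not resolved. Car15, Car14 and Car12 followed at 62.5 ± 10.6, 57.5 ± 9.81 and 55.4 ± 22.1 FPKM, each overlapping its neighbour in the order, and all libraries of Car2 were above those of Car15. Car3 and Car5b came next at 21.4 ± 23.4 and 18.4 ± 2.55 FPKM, then Car9 at 13.3 ± 2.002 FPKM, Car5a at 2.75 ± 1.25 FPKM and Car13 at 0.499 ± 0.207 FPKM, with no overlap between the last 4 genes of the order. The Tet2-/- baseline kidneys had the same first 5 genes in the same order.

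After IR the order was rebuilt, while the summed level of the 10 genes stayed in one range. The sum was 474 ± 70.8 FPKM in WT and 441 ± 48.6 FPKM in Tet2-/- at baseline, and 445 ± 47.1 and 456 ± 97.7 FPKM after IR (SD, n = 3 each). Car2 and Car15 now led in both genotypes. Together they held 36.5 ± 5.43% of the sum in WT and 39.7 ± 7.85% in Tet2-/- at baseline, against 64.1 ± 4.81% in WT and 81.7 ± 2.66% in Tet2-/- after IR. The other large block, Car4 with the transmembrane genes Car9, Car12 and Car14, went from 54.8 ± 5.39% and 55.3 ± 8.76% at baseline to 30.03 ± 5.03% in WT and 10.8 ± 0.988% in Tet2-/- after IR. These blocks were put together after the values were seen. In whole tissue, fewer cells of a type and less RNA per cell cannot be told apart, and the same limit holds for each level given here.

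**Figure D1:**
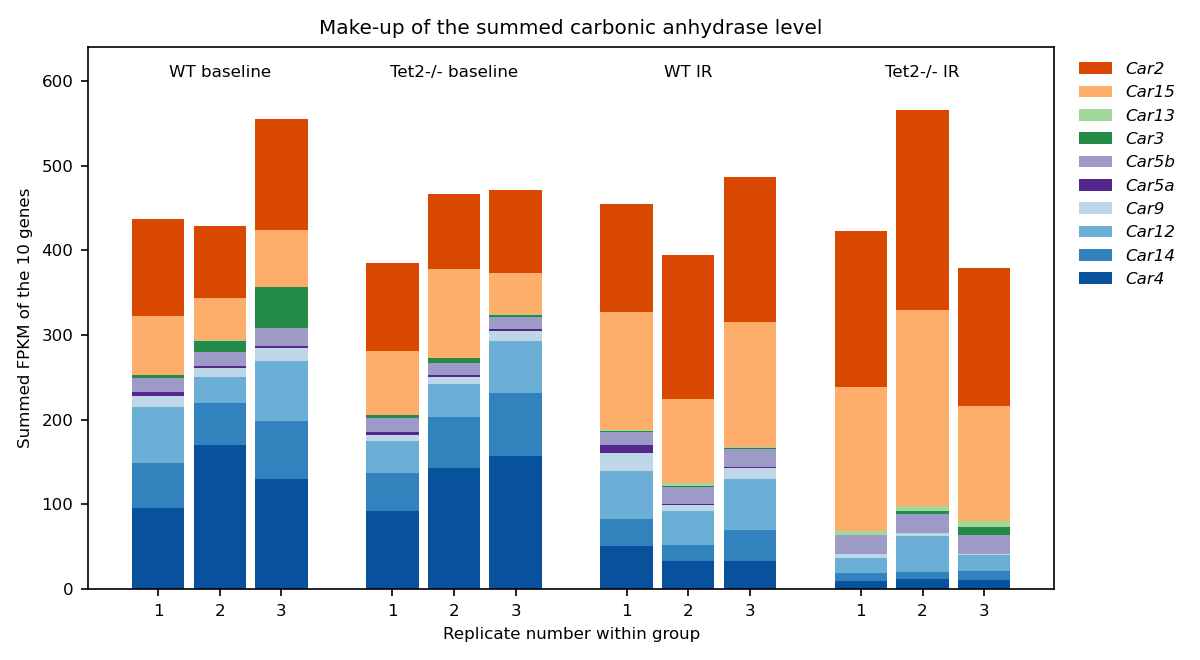
Stacked bars give the summed FPKM of the 10 carbonic anhydrase genes in each of the 12 libraries, numbered by replicate within group, with 1 colour per gene. The blue blocks (Car4, Car14, Car12 and Car9) make up 47.4% to 64.7% of each baseline bar, 25.3% to 35.3% of each WT bar after IR and 9.72% to 11.6% of each Tet2-/- bar after IR, while bar heights overlap between all groups.

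The anchored enzymes Car4 and Car15 parted after IR, Car4 falling and Car15 higher without passing the size threshold. Car4 is held on the outer face of the plasma membrane by a lipid (GPI) anchor, on the proximal tubule brush border among other places. It was at 95.5, 170 and 130 FPKM in the WT baseline libraries, at 92.3, 144 and 157 FPKM in Tet2-/- at baseline, at 51.2, 32.6 and 32.6 FPKM in WT after IR and at 9.43, 11.96 and 10.3 FPKM in Tet2-/- after IR. The baseline genotypes overlapped, both IR groups lay below both baseline groups, and the Tet2-/- libraries after IR lay below all WT libraries after IR. The fall with IR was -1.83 (SE 0.26, adjusted p = 0.0197) in WT and -3.90 (SE 0.24, adjusted p = 8.95e-05) in Tet2-/-. After IR, Car4 was lower in Tet2-/- than in WT by a log2 fold change of -1.97 (SE 0.20, adjusted p = 0.0103). The test of the difference between the IR effects gave -2.03 (SE 0.35, adjusted p = 0.0086), and Car4 was called in all 18 alternatives of the genotype comparison after IR and all 18 of the IR comparison in Tet2-/-, in 13 of 19 of the IR comparison in WT and in 22 of 24 for the difference of the IR effects.

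Car15, the other GPI-anchored enzyme, was at 69.8, 50.4 and 67.5 FPKM in WT and at 75.8, 105 and 49.4 FPKM in Tet2-/- at baseline. After IR it was at 140, 98.3 and 147 FPKM in WT and at 171, 231 and 136 FPKM in Tet2-/-. All IR libraries of a genotype were above the baseline libraries of that genotype, and the genotypes overlapped at both times. The difference with IR was 0.96 (SE 0.28, adjusted p = 0.026) in Tet2-/-, under the required size, and 0.98 (SE 0.22, adjusted p = 0.0688) in WT. Within a library the ratio of Car4 to Car15 does not depend on scaling between libraries. It was 2.22 ± 1.04 in WT and 1.92 ± 1.10 in Tet2-/- at baseline, 0.307 ± 0.075 in WT after IR and 0.061 ± 0.0131 in Tet2-/- after IR (SD, n = 3 each). The 3 ratios of each group after IR lay outside the range of the other groups.

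Among the transmembrane enzymes, whose catalytic domain faces outward, Car14 followed Car4 closely. Car14 was at 53.9, 50.0 and 68.6 FPKM in WT and at 44.8, 59.4 and 74.2 FPKM in Tet2-/- at baseline, at 31.9, 19.6 and 36.9 FPKM in WT after IR and at 9.88, 7.81 and 10.7 FPKM in Tet2-/- after IR. The 3 Tet2-/- libraries after IR were the lowest of the 12. It fell with IR in Tet2-/- by 2.90 on the log2 scale (SE 0.25, adjusted p = 0.000246) and was lower in Tet2-/- than in WT after IR (-1.75, SE 0.30, adjusted p = 0.0207). In WT the IR value was -1.01 (SE 0.28) with an adjusted p of 0.0976, or -1.06 with an adjusted p of 0.014 with the replicate number as a block. The baseline and IR mice were different animals, and the labels do not link libraries of the same number. The IR effects differed between the genotypes by -1.84 (SE 0.40, adjusted p = 0.0193). Over the 12 libraries the Pearson correlation of Car14 with Car4 was 0.961, a description of points that share their 4 groups.

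Car9, the member best known for its induction by hypoxia-inducible factor (HIF) in tumours, was at 13.3, 11.3 and 15.3 FPKM in WT and at 7.24, 7.90 and 11.8 FPKM in Tet2-/- at baseline. After IR the WT libraries were spread over 21.3, 7.64 and 13.9 FPKM, around their baseline level, and the Tet2-/- libraries were at 4.67, 2.92 and 2.02 FPKM, below all others. The gene fell with IR in Tet2-/- by 1.76 on the log2 scale (SE 0.33, adjusted p = 0.00503), and the WT value was 0.04 (SE 0.35, adjusted p = 0.963). After IR it was lower in Tet2-/- than in WT by -2.27 (SE 0.45, adjusted p = 0.0276). The difference of the IR effects was -1.74 (SE 0.53) and missed the threshold with an adjusted p of 0.0612. With the replicate numbers as a block it was -1.71 with an adjusted p of 0.0446, and with the block within each genotype -1.68 with an adjusted p of 0.0552. Car12, which is prominent in the collecting duct, was at 65.8, 30.1 and 70.5 FPKM in WT and 38.03, 39.7 and 61.6 FPKM in Tet2-/- at baseline, 56.1, 39.96 and 60.04 FPKM in WT after IR and 17.1, 43.2 and 18.9 FPKM in Tet2-/- after IR. The last group held 2 low libraries and 1 that overlapped every other group. Car12 fell with IR in Tet2-/- by 1.11 (SE 0.36, adjusted p = 0.0383), a call that was lost when any of 5 libraries was left out, and its genotype difference after IR was -1.12 (SE 0.36, adjusted p = 0.0935).

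The mitochondrial pair separated after IR in the Tet2-/- kidneys. Car5a was at 3.89, 1.41 and 2.96 FPKM in WT and at 3.25, 2.43 and 1.99 FPKM in Tet2-/- at baseline. After IR it was at 9.53, 1.14 and 1.19 FPKM in WT, so that 1 library stood far above the rest, and at 0.139, 0.063 and 0 FPKM in Tet2-/-. Behind these last values stood 19, 10 and 0 counts, and 3 counts, the limit that a count of 0 allows, would be 0.0258 FPKM in that library, for counting error only. Car5a fell with IR in Tet2-/- by 5.46 (SE 0.83, adjusted p = 0.00192), was lower in Tet2-/- than in WT after IR (-5.91, SE 1.32, adjusted p = 0.0377), and its IR effects differed by -5.83 (SE 1.32, adjusted p = 0.0232). With limma on log2(FPKM + 1) neither of the last 2 differences passed, at -1.78 (adjusted p = 0.106) and -1.75 (adjusted p = 0.141). Without WT replicate 1 after IR the genotype difference was -4.21 with an adjusted p of 0.095, the difference of the IR effects was -4.14 with an adjusted p of 0.0431, and the IR effect in WT turned from 0.42 to -1.28 (adjusted p = 0.18). BC048644, a non-coding gene that overlaps a Car5a exon on the opposite strand, was highest in that same WT library at 1.75 FPKM and was at 0 to 0.02 FPKM in Tet2-/- after IR. Whether reads were assigned by strand is not given in the sources used here, so these genes cannot be told apart in that overlap.

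Car5b, the more widely expressed mitochondrial form, was at 17.0, 16.8 and 21.3 FPKM in WT and at 16.4, 14.1 and 14.3 FPKM in Tet2-/- at baseline, at 15.3, 19.2 and 20.5 FPKM in WT after IR and at 22.4, 22.9 and 22.0 FPKM in Tet2-/- after IR. The Tet2-/- libraries after IR were the highest of the 12 and differed by little among themselves (22.4 ± 0.466 FPKM, n = 3). The IR difference in Tet2-/- was 0.33 (SE 0.11, adjusted p = 0.0469), too small to be called. The ratio of Car5a to Car5b within a library was between 0.0841 and 0.229 in the 6 baseline libraries, between 0.0581 and 0.622 in WT after IR, and at most 0.0062 in Tet2-/- after IR.

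**Figure D2:**
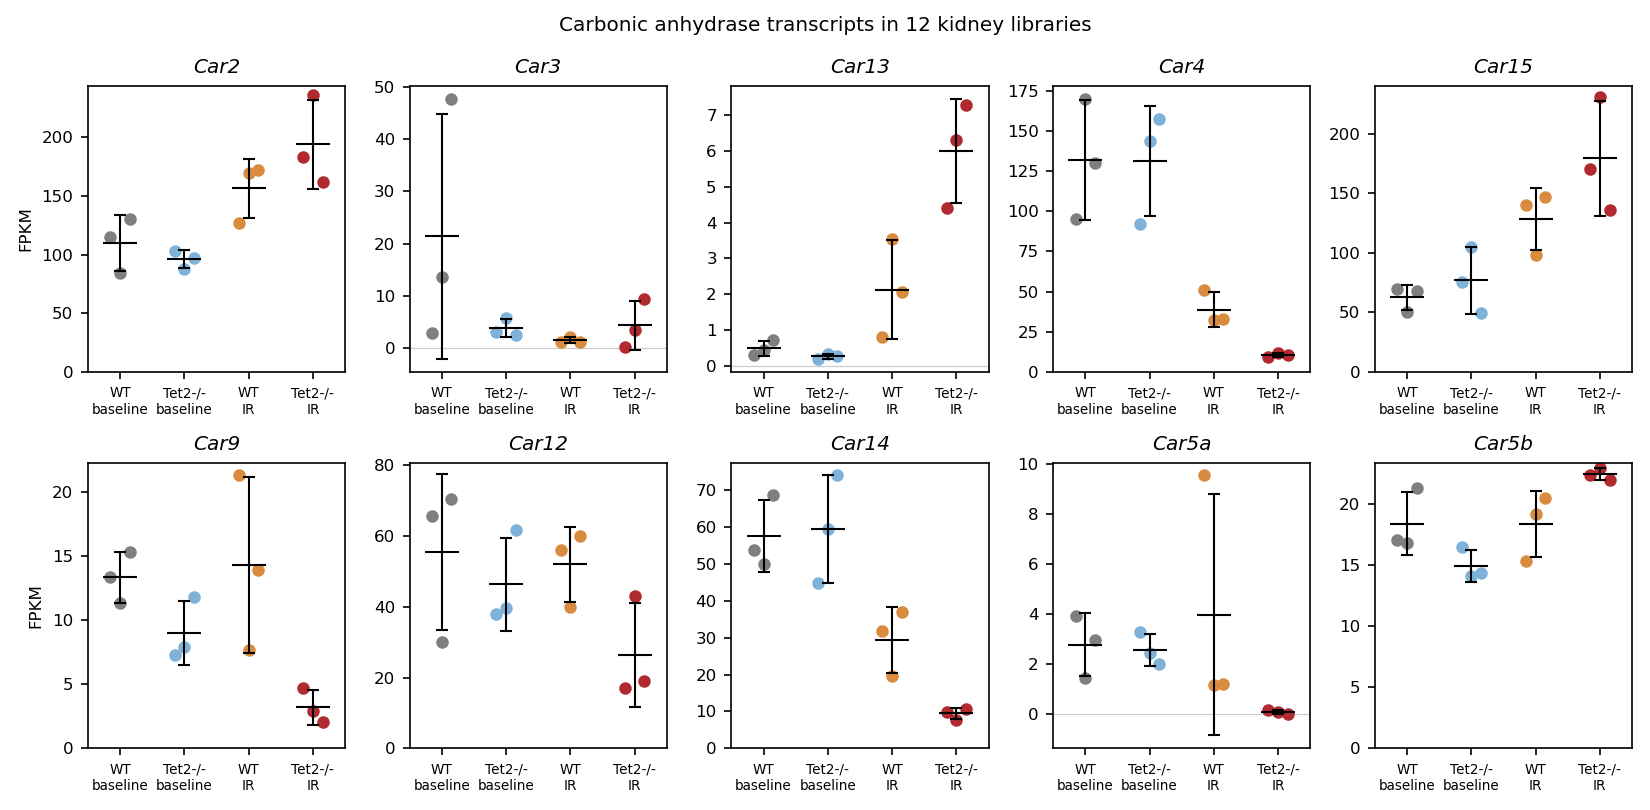
Each panel gives 1 carbonic anhydrase gene in FPKM, with a point per library, a horizontal bar for the mean and whiskers of 1 SD (n = 3 per group). Car4, Car14, Car9 and Car5a are lowest in the Tet2-/- libraries after IR, Car13 and Car5b are highest there, and the WT baseline whiskers of Car3 and the WT IR whiskers of Car5a each reflect 1 library far above the others.

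Among the cytosolic enzymes Car13 rose with IR in Tet2-/-, and Car2 was higher there by less than the required size. Car2, the fast enzyme that carries most of the kidney's carbonic anhydrase activity, was at 115, 84.3 and 131 FPKM in WT and at 103, 88.0 and 97.5 FPKM in Tet2-/- at baseline, at 127, 170 and 172.1 FPKM in WT after IR and at 183, 236 and 162 FPKM in Tet2-/- after IR. The Tet2-/- groups did not overlap, and the WT groups did. Its IR difference in Tet2-/- was 0.74 (SE 0.16, adjusted p = 0.00787), past the p threshold but not the size threshold, and in WT it was 0.45 (SE 0.23, adjusted p = 0.294). Red blood cells also carry Car2. The 11 red blood cell genes found in the tables summed to 44.2 to 262 FPKM in WT after IR and 237 to 265 FPKM in Tet2-/- after IR, and Car1, the abundant red cell member of the family, was at 0 to 0.023 FPKM in all 12 libraries. The part of blood in the Car2 level was not tested.

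Car13 started as the scarcest of the 10 genes. It was at 0.319, 0.452 and 0.725 FPKM in WT and at 0.201, 0.328 and 0.288 FPKM in Tet2-/- at baseline, at 0.804, 3.54 and 2.06 FPKM in WT after IR and at 4.42, 6.29 and 7.27 FPKM in Tet2-/- after IR. No IR library overlapped a baseline library, and the genotypes did not overlap after IR. In Tet2-/- it rose with IR by a log2 fold change of 4.198 (SE 0.32, adjusted p = 0.000151), a fold of 18.4, and was the only one of the 10 genes called higher in any comparison of the main test. Car15 was called higher with IR in 6 of 18 alternatives in Tet2-/- and 3 of 19 in WT. For Car13 the IR value in WT was 2.03 (SE 0.57, adjusted p = 0.105), or 1.88 with an adjusted p of 0.0295 with the replicate number as a block. The genotype difference of Car13 after IR was 1.40 (SE 0.50, adjusted p = 0.117). The difference of the IR effects was 2.21 (SE 0.68, adjusted p = 0.0632), and with the replicate numbers as a block within each genotype it was 2.36 with an adjusted p of 0.0152.

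Car3, a slow cytosolic enzyme that is abundant in adipocytes, skeletal muscle and liver, ranged widely within groups. It was at 2.83, 13.6 and 47.7 FPKM in WT and at 2.99, 5.84 and 2.59 FPKM in Tet2-/- at baseline, at 1.26, 2.16 and 1.10 FPKM in WT after IR and at 0.305, 3.38 and 9.40 FPKM in Tet2-/- after IR. The highest and lowest of the WT baseline libraries differed 16.8-fold. The 13 adipocyte marker genes had a mean log2(FPKM + 0.1) of -0.83, 1.59 and 2.77 in the WT baseline libraries 1, 2 and 3 and of 2.73 in Tet2-/- replicate 3 after IR, against -1.45 to -0.30 in the other 8 libraries. The 3 libraries with the highest marker level were also the 3 with the highest Car3. The 14 skeletal muscle markers summed to 1.08 to 2.34 FPKM in all libraries, and the 11 hepatocyte markers to 30.7 to 177 FPKM. The highest hepatocyte sum, in Tet2-/- replicate 3 after IR, held Fgb at 134 FPKM and Alb at 0.919 FPKM. Summed adipocyte markers ranged from 67.6 to 310 FPKM in WT at baseline, 47.5 to 80.2 FPKM in Tet2-/- at baseline, 23.0 to 82.6 FPKM in WT after IR and 88.7 to 625 FPKM in Tet2-/- after IR, and of these genes up to 4 were at 0 in a library. Much of that sum was Fabp4, at 58.1 of 67.6 FPKM in WT baseline replicate 1 and 445 of 625 FPKM in Tet2-/- replicate 3 after IR.

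The Car3 comparisons were also run without WT baseline replicates 2 and 3 and with the adipocyte marker level as a covariate. Those libraries held the highest Car3 of their group, so leaving them out had to raise the genotype and IR values. Its genotype value at baseline was -2.41 (SE 0.89, unadjusted p = 0.0285, adjusted p = 0.369). Without WT replicates 2 and 3 at baseline it was 0.51, and with the adipocyte marker level as a covariate it was 0.91. Its IR value in WT was -3.91 (SE 0.96, adjusted p = 0.0793), -0.99 without both libraries and -3.11 (adjusted p = 0.0483) with the replicate number as a block. In Tet2-/- the IR value was -0.02 (SE 0.94, adjusted p = 0.989). Car3 passed in none of the 5 comparisons of the main test.

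**Figure D3:**
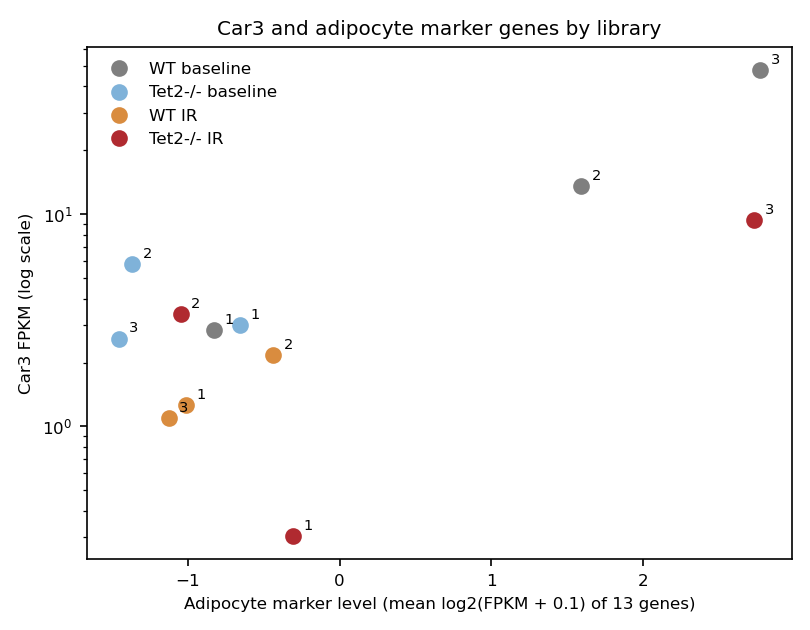
Car3 in FPKM (log scale) is plotted against the mean log2(FPKM + 0.1) of 13 adipocyte marker genes, 1 point per library, coloured by group and numbered by replicate. WT baseline replicates 2 and 3 and Tet2-/- replicate 3 after IR lie apart at marker levels of 1.59, 2.77 and 2.73 and hold the 3 highest Car3 values of 13.6, 47.7 and 9.40 FPKM.

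Counted over the 10 genes, the genotype made no called difference in the uninjured kidney. Of all 16083 genes tested, 0.0124% were called higher and 0% lower in Tet2-/- at baseline, so 0 of 10 is what that comparison gives for nearly any list. At an unadjusted p under 0.05 there was 1 of the 10, Car3, and DESeq2 called 0. The 10 log2 fold changes ran from -2.41 to 0.38 with a median of -0.13, against 0.0041 over all genes tested.

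After IR, 4 of the 10 genes (Car4, Car5a, Car9 and Car14) were called lower in Tet2-/- than in WT, and Car12 and Car13 had unadjusted p of 0.0165 and 0.0249 without being called. DESeq2 called 6. Over all 16188 genes tested, 3.87% were called lower and 2.32% higher. The median of the 10 was -0.47, against 0.04 over all genes. The 4 calls shrank to 1, Car4, when WT replicate 1, WT replicate 3 or Tet2-/- replicate 1 after IR was left out, and to Car4 and Car14 without Tet2-/- replicate 3. Without Tet2-/- replicate 2, Car4 and Car12 were called. With the adipocyte marker level as a covariate, an alternative chosen after seeing the data, Car4 alone was called (-1.97, adjusted p = 0.0482). That fit called 100 of 16188 genes higher and 203 lower, against 375 and 626 in the main test. The values of the other 3 there were -1.88 for Car14 (adjusted p = 0.0642), -1.95 for Car9 (adjusted p = 0.0942) and -4.87 for Car5a (adjusted p = 0.118).

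IR against baseline gave 1 call in WT, the lower Car4, where 0.887% of 16016 genes were called lower and 1.46% higher. With the replicate number as a block there were 4 calls, Car3, Car4 and Car14 lower and Car13 higher, beside 3.48% of all genes lower and 2.67% higher in that fit. The single call was lost without WT baseline replicate 2 or 3 or WT IR replicate 2 or 3, with Car4 at -2.05 to -1.59 over all libraries left out in turn, and 2 genes were called without either replicate 1. In Tet2-/- the same comparison called 5 of the 10 lower (Car4, Car5a, Car9, Car12 and Car14) and 1 higher (Car13), beside 11.6% of 16361 genes lower and 12.7% higher. The median of the 10 was -0.56 in Tet2-/- and -0.01 in WT, against 0.04 and -0.03 over all genes tested. All 4 comparisons reuse groups (each group enters 2 of them), so their calls are not separate evidence.

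The IR effect differed between the genotypes for 3 of the 10 genes, Car4, Car5a and Car14, each lower with IR in Tet2-/- relative to WT, where 9.18% of 16739 genes passed an adjusted p of 0.05. This was the single test of whether the genotypes respond unlike each other, and for Car9, Car12 and Car13 it did not pass in the main test. Car9 passed in 4 and Car13 in 7 of 24 alternatives, both of them with DESeq2 and with the replicate numbers as a block, and Car13 also with the block within each genotype. The 3 calls fell to 0 when WT baseline replicates 2 and 3 were both left out, with log2 differences of -2.54 for Car4, -5.40 for Car5a and -1.995 for Car14 and adjusted p of 0.0684, 0.198 and 0.121. With the adipocyte marker level as a covariate there were 0 calls, with the 3 genes at -2.21, -4.83 and -2.12 (adjusted p = 0.0738, 0.19 and 0.099). That fit called 7 of 16739 genes higher and 13 lower, against 634 and 903 in the main test.

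**Figure D4:**
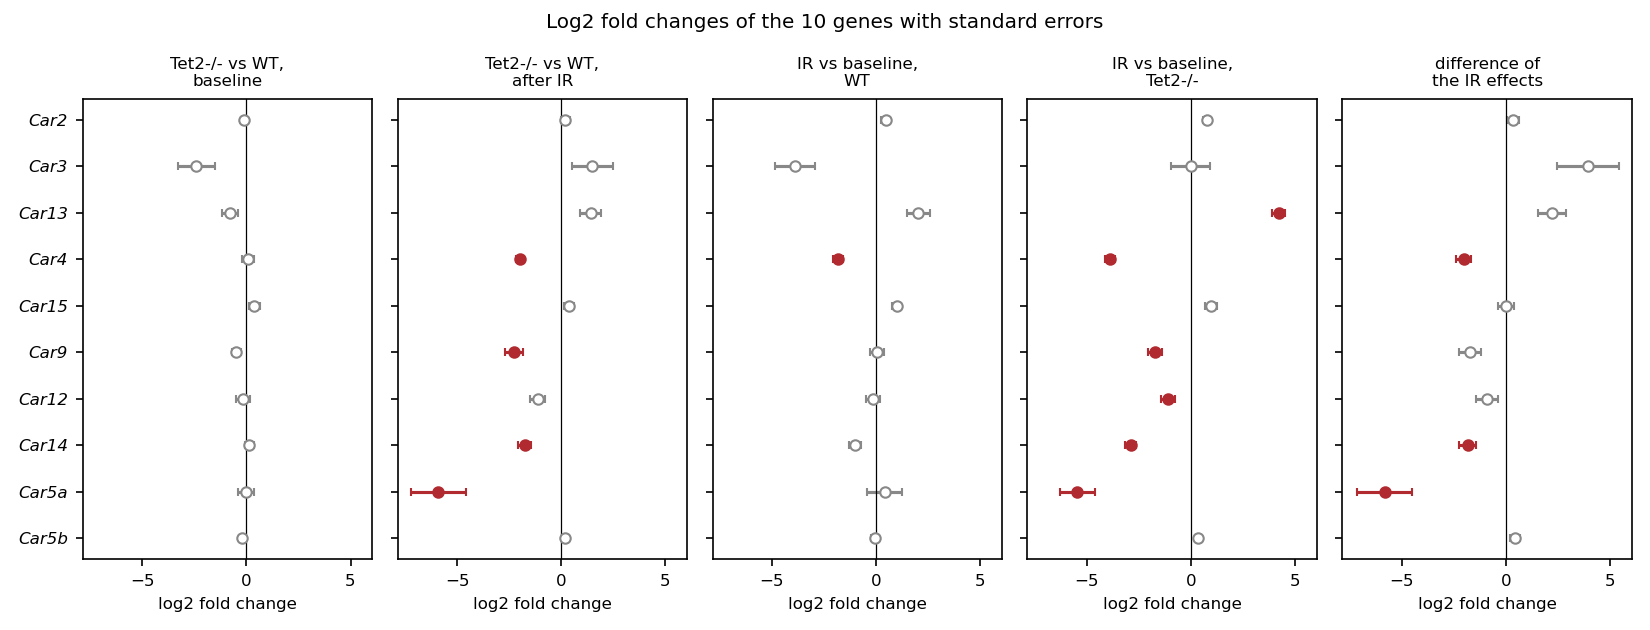
Log2 fold changes of the 10 genes are shown for the 4 comparisons between groups and for the difference of the IR effects (Tet2-/- minus WT), with whiskers of 1 standard error from edgeR. Filled red points passed the call rule (adjusted p under 0.05, and beyond 1 on the log2 scale in the first 4 panels), which holds for 0, 4, 1, 6 and 3 genes from left to right.

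The upstream sequences of the 4 genes that were lower in Tet2-/- after IR are shown because Car9 is a known HIF target and the others can be read against it. RefSeq promoter sequences (GRCm38.p6) were matched for 7 of the 10 genes by symbol. Car2, Car3 and Car13 were not matched. The 250 bases upstream of each RefSeq start were searched on both strands for ACGTG, the core of the HIF-binding element, which is also contained in the CACGTG element bound by other factors. Capitals mark the match, here CACGT, which is ACGTG on the opposite strand. The windows are chr4:43506776-43507025 on the plus strand for Car9, chr3:95904686-95904935 on the minus strand for Car14, chr11:84957504-84957753 on the plus strand for Car4 and chr8:121944913-121945162 on the minus strand for Car5a, each printed 5′ to 3′ on the strand of its gene.
Car9: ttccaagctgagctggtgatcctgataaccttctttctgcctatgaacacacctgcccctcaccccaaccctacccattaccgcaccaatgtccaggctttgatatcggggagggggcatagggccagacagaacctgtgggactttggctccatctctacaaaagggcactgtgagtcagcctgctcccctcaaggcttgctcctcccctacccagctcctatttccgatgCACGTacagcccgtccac
Car14: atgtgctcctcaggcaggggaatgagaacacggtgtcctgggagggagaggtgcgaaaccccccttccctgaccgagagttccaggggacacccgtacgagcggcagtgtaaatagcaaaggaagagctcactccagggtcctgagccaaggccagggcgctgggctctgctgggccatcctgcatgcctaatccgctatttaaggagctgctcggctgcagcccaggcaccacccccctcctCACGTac
Car4: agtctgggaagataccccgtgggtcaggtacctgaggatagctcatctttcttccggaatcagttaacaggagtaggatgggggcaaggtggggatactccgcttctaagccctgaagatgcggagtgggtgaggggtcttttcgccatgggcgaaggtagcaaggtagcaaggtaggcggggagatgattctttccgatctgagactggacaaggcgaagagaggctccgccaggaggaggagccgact
Car5a: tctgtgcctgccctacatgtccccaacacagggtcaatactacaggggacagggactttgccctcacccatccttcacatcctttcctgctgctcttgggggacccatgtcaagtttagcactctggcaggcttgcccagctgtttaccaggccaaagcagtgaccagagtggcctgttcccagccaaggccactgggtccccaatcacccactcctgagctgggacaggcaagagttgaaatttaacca
Car9 and Car14 held the letters and the other 5 matched genes did not. The match began 18 bases upstream of the Car9 start and 7 bases upstream of the Car14 start, and in both genes the next base made it CACGTA, not CACGTG. Of 32851 promoters of this length, 16.57% held the letters anywhere in the 250 bases and 1.5% within the 20 bases next to the start. The 20-base window takes in both matches, so its share does not test how near they lie. In the files' own build, mm9, the 4 windows were each found once on their chromosome, directly upstream of the annotated start for Car9, Car4 and Car5a and 46 bases away for Car14. The Car14 match was therefore not within 20 bases of that annotated start.

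The deposited tables place the 10 transcripts on mm9, with Car13, Car3 and Car2 on the plus strand of chromosome 3 (14641727 to 14663002, 14863538 to 14872373 and 14886426 to 14900770). Car1 lies between Car13 and Car3 on the minus strand (14766214 to 14778460). Car14 lies further along chromosome 3 on the minus strand (95701723 to 95708562), and 445 bases of 1 of its exons are shared with an exon of Aph1a on the opposite strand. Aph1a was at 14.96 to 21.2 FPKM in WT and 12.1 to 16.1 FPKM in Tet2-/- after IR, and its part in the Car14 count was not tested. Car4 is on chromosome 11 (84771256 to 84779556, plus), Car12 on chromosome 9 (66561493 to 66614652, plus), Car9 on chromosome 4 (43519898 to 43526597, plus), where 163 exon bases are shared with Gm12454 on the opposite strand, and Car15 on chromosome 16 (17835369 to 17838279, minus), where a predicted gene, Gm20518, shares exon sequence on the same strand. Car5a is on chromosome 8 (124440044 to 124468812, minus) and Car5b on chromosome X (160414754 to 160465942, minus). The longest transcripts of Car5a and Car5b held repeated stretches that matched 2084 and 1873 other places in the genome at 95% identity or more over at least 100 bases, and those of the other 8 genes matched none.

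The 6 further family members were low or near 0. Car7, a cytosolic form, was at 0.632 to 1.501 FPKM and fell with IR in Tet2-/- (-1.13, SE 0.25, adjusted p = 0.00943). Car8 and Car11, relatives without the zinc site needed for catalysis, were at 0.088 to 0.725 FPKM and 0.514 to 2.65 FPKM. Car8 was lower in all Tet2-/- than in all WT libraries at baseline by -1.72 (SE 0.24, unadjusted p = 0.000144), but with an adjusted p of 0.206. Car1, Car6 and Car10 reached at most 3.5, 9.5 and 3 counts in any library and were too low to test.

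Transport of bicarbonate, protons and ammonia beside these enzymes was read from a list of 28 genes, which also held Aqp1, Slc9a3r1 and Foxi1. After IR 3 were called lower in Tet2-/- than in WT, beside 3.87% of all genes: Slc4a1, the chloride-bicarbonate exchanger of acid-secreting intercalated cells (-2.67, SE 0.65, adjusted p = 0.0483), Atp4a, a proton-potassium pump subunit (-2.39, SE 0.55, adjusted p = 0.0406), and Aqp1, the water channel of the proximal tubule (-2.21, SE 0.39, adjusted p = 0.0217). Their list had a median of -0.23, against 0.04 over all genes. Slc4a4, the basolateral sodium-bicarbonate cotransporter, was at 43.5 to 71.7 FPKM in WT and 32.4 to 70.0 FPKM in Tet2-/- after IR, and Slc9a3, the apical sodium-proton exchanger, at 8.95 to 16.1 and 7.24 to 39.4 FPKM. Neither passed in any of the 5 comparisons. With IR in Tet2-/- 7 of the 28 fell, beside 11.6% of all genes tested, led by Slc4a1 (-3.27, adjusted p = 0.00488) and Aqp1 (-2.50, adjusted p = 0.00135), and 1 rose, Slc4a7 (1.23, adjusted p = 0.011), beside 12.7% of all genes.

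Enzymes that use mitochondrial bicarbonate or make ammonia were split. Of 11 tested, the methylcrotonyl-CoA carboxylase subunits Mccc2 (-1.499, SE 0.20, adjusted p = 0.0123) and Mccc1 (-1.09, SE 0.25, adjusted p = 0.0393) were lower in Tet2-/- than in WT after IR, beside 3.87% of all genes. With IR in Tet2-/- 3 fell and 3 rose, Mccc2 falling most (-2.19, adjusted p = 7.02e-05), and Glud1, the glutamate dehydrogenase of ammonia formation, rising most (1.502, adjusted p = 0.0121). In WT 2 rose, beside 1.46% of all genes, Slc38a3, a glutamine transporter (1.84, adjusted p = 0.0161), and Glud1 (1.31, adjusted p = 0.04). Pcx, the pyruvate carboxylase, did not pass in any comparison. The other HIF targets, read beside Car9, had 1 call of 18 tested in the genotype comparison after IR, where 2.32% of all genes were called higher and 3.87% lower. Adm, which encodes a vasodilator peptide, was higher in Tet2-/- (1.54, SE 0.35, adjusted p = 0.0405). With IR in Tet2-/-, where 12.7% of all genes were called higher and 11.6% lower, 3 of the 18 rose, Hk2 (3.95, adjusted p = 0.000366), Adm (2.45, adjusted p = 0.000599) and Slc2a1, and 3 fell, with Ddit4 at -2.33 (adjusted p = 0.000397), close to those shares in each direction.

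Proximal tubule markers were the segment list with the most genes called lower after IR in Tet2-/-. Of 15 proximal tubule markers, 6 were lower in Tet2-/- than in WT after IR, beside 3.87% of all genes (median -1.30), led by Slc7a13 (-3.22, SE 0.41, adjusted p = 0.0116). In WT 3 fell with IR, beside 0.887% of all genes, and in Tet2-/- 11 did, beside 11.6%, with medians of -0.77 and -1.91. Their summed level was 37345 to 55579 FPKM in WT and 55097 to 55838 FPKM in Tet2-/- at baseline, 23586 to 27666 FPKM in WT and 15202 to 24223 FPKM in Tet2-/- after IR, and none of the 15 was at 0 in any library. Most of that sum was Kap, an androgen-regulated kidney protein, at 30634 to 49842 FPKM in WT at baseline and 13868 to 22443 FPKM in Tet2-/- after IR. The mean log2(FPKM + 0.1) of the 15 genes, which weights them equally, was 7.98 to 8.38 in WT and 7.95 to 8.32 in Tet2-/- at baseline, 7.31 to 7.64 in WT after IR and 6.07 to 6.39 in Tet2-/- after IR. Of 8 thick ascending limb markers 1 was lower in Tet2-/- after IR, the tight junction gene Cldn10 (-1.61, SE 0.20, adjusted p = 0.0115), and 4 fell with IR in Tet2-/-, where 11.6% of all genes did. Replicate 3 of Tet2-/- after IR stood apart in this list, with a mean log2(FPKM + 0.1) of 3.75 against 5.35 and 5.46 in replicates 1 and 2. Of 10 intercalated cell markers 1 was lower in Tet2-/- than in WT after IR (Slc4a1) and 2 fell with IR in Tet2-/- (Slc4a1 and Aqp6). In Tet2-/- replicates 1, 2 and 3 after IR the intercalated mean log2(FPKM + 0.1) was 2.52, 3.26 and 2.28, with replicate 2 highest, as it was for Car12. Of 10 principal cell markers 0 were lower than in WT after IR by edgeR's adjusted p and 5 by an unadjusted p under 0.05, and 2 fell with IR in Tet2-/- (Aqp4 and Hsd11b2). Tubular injury markers rose with IR in both genotypes, 7 of 10 in WT and 9 of 10 in Tet2-/-, beside 1.46% and 12.7% of all genes. Krt20, a keratin of injured tubules, rose most (6.46 and 12.61). Its baseline was 0.247 to 1.37 FPKM in WT and 0.028 to 0.067 FPKM in Tet2-/-. That low start limits a comparison of these folds. After IR 1 of the 10 was higher in Tet2-/- than in WT, beside 2.32% of all genes (median 1.64). In replicates 1, 2 and 3 after IR their mean log2(FPKM + 0.1) was 4.93, 6.44 and 5.92 in WT and 7.44, 7.99 and 7.46 in Tet2-/-. Of 11 neutrophil and macrophage markers tested after IR, 5 were higher in Tet2-/-, beside 2.32% of all genes, led by S100a8 (3.93, adjusted p = 0.00885) and S100a9 (3.85, adjusted p = 0.0103). How far segment loss, the extent of injury or infiltrating cells account for the carbonic anhydrase values was not tested.

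**Figure D5:**
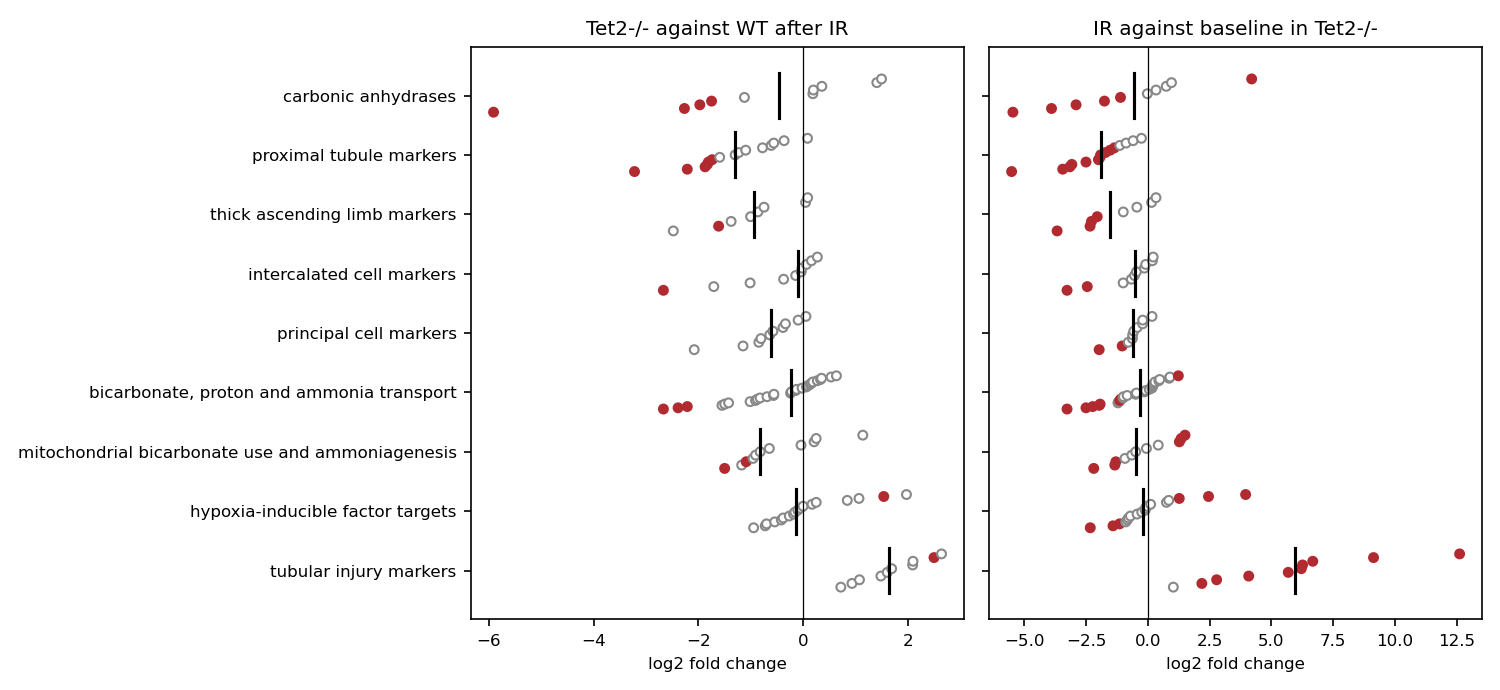
Points give the log2 fold change of every tested gene of each list for Tet2-/- against WT after IR (left) and IR against baseline in Tet2-/- (right). Filled red points were called and black bars are list medians. The medians of the carbonic anhydrases (-0.47 and -0.56) lie nearer 0 than those of the proximal tubule markers (-1.30 and -1.91), while Car5a (-5.91) lies below every proximal tubule marker on the left.

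The genes most like each of the 10 over the 12 libraries were ranked by Pearson's correlation of log2(CPM + 1), where CPM is the TMM-scaled count per unit of depth, among 12886 genes, as a description of libraries that share their groups. Car14 was most like Auh, a mitochondrial enzyme of leucine breakdown (r = 0.991), Pmpcb (0.987) and Slc34a1, the phosphate cotransporter of the proximal tubule (0.987). Slc34a1 was itself at 477 to 760 FPKM in WT and 188 to 228 FPKM in Tet2-/- after IR. Nearest to Car4 were D630024D03Rik (0.995), Lztr1 (0.993) and Zeb2os (0.988), and nearest to Car5a were Mertk (0.967), Slc28a1 (0.961) and Mmab (0.958). Car9 was most like Lrrc61, Hpd and Zfp606 (0.953 to 0.948). Car12 stood with Arhgap18, Atp6v1b1, a proton pump subunit of intercalated cells, and Acp2 (0.940 to 0.935). Car13 had Ifngr2, an interferon-gamma receptor chain, Cd151 and Tax1bp3 (0.990 to 0.986), and Car3 had Ifi27l2a (0.908), Slc36a2 (0.879) and the adipocyte gene Cidea (0.865). Among the 10 themselves the lowest correlation was that of Car4 with Car13 (-0.936). Car2, Car5b and Car15 were most like Lmbr1 (0.959), Naa35 (0.946) and D630045M09Rik (0.932).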

How the data were processed

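Alignment by the authors used STAR on mm9, and HOMER counted reads per RefSeq transcript, per the paper's methods and the submitters' processing notes, with versions not given in the sources used here. The deposited expected counts are multiples of 0.5, which were rounded to whole numbers, although plain counts had been assumed when the tests were planned. The deposited FPKM values were used for levels and the limma alternatives. The 34600 rows were reduced to 24421 symbols by the largest total count, since 5569 symbols had more than 1 row.

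Genes were filtered with filterByExpr, TMM-normalised and tested in edgeR 4.0.16 (R 4.3.3) with glmQLFit and glmQLFTest, using the 6 libraries of each comparison or all 12 for the difference of IR effects, with Benjamini-Hochberg adjustment. The standard error was taken as the log2 fold change over the root of F. Alternatives used DESeq2 1.42.0, limma 3.58.1 on log2(FPKM + 1) or log2(FPKM + 0.1), other filters and scalings, a replicate block, a marker covariate and leaving out libraries. The steps were tested on simulated data. Like loci were searched with BLAST+ 2.17.0, and figures drawn with matplotlib 3.10.9.

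The 10 genes and all 15 lists were chosen with earlier results of these data known. All 10 genes were given in every library, at most 3 called genes per list and comparison with the largest log2 fold change and a mean of 1 FPKM or more were named, and 3 genes most like each of the 10 were ranked. Pcx, Slc2a1, Slc4a4, Slc4a7, Slc9a3, the Slc34a1 levels and the overlapping genes were added after their values were seen. Same-numbered baseline and IR libraries deviated together (correlations 0.345 to 0.349 in WT and 0.119 to 0.348 in Tet2-/-), so values with the replicate number as a block stand beside the IR results whose calls they change. The study used different mice for the baseline and IR groups, and what the shared number stands for is not given in the labels.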

Additional observations from a re-analysis of the deposited data

Results flagged for a closer look

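The test of the difference between the IR effects of the genotypes passed for 3 genes. The IR effect in Tet2-/- minus that in WT was -2.03 for Car4 (IR effects of -3.90 and -1.83), -5.83 for Car5a (-5.46 and 0.42) and -1.84 for Car14 (-2.90 and -1.01), on the log2 scale with 12 libraries. The Car5a difference was -4.14 without WT replicate 1 after IR. No group had the 4 libraries needed to test a single library as an outlier.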

How the results depend on the processing

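Of the 10 genes, 0 were called between the genotypes at baseline under every alternative run. The number called after IR (4) was 1 with the adipocyte marker level as a covariate, and 1 to 4 with 1 library left out. With IR in WT (1 called) it was 4 with DESeq2, 4 with edgeR's exact test, 4 with the replicate block, 2 with library sizes alone, 2 in a single fit of all 12 libraries, 2 with limma at either pseudocount, 0 without WT baseline replicates 2 and 3, 0 with the covariate and 0 to 2 with 1 library left out. With IR in Tet2-/- (6 called) it was 5 to 6 with 1 library left out. Car15, higher, took the place of Car12 with library sizes alone, with limma at either pseudocount, with the covariate, and without Tet2-/- baseline replicate 2 or Tet2-/- IR replicate 3. For the difference of the IR effects (3 called) it was 5 with DESeq2, 5 with the replicate block, 4 with the block within genotype (chosen after seeing the data), 0 without WT baseline replicates 2 and 3, 0 with the covariate and 3 to 5 with 1 library left out. Leaving out WT baseline replicates 2 and 3 left 1 library in that group, which assumes that it varies like the others. Between the genotypes, same-numbered libraries had correlations of -0.173 to 0.053 at baseline and 0 to 0.304 after IR. The latter range overlaps that of IR against baseline in Tet2-/- (0.119 to 0.348). A replicate block left 0 and 4 called between the genotypes at baseline and after IR. Over all genes, DESeq2 called 23 higher and 298 lower at baseline against 2 and 0 by edgeR, 775 and 880 after IR against 375 and 626, 490 and 491 with IR in WT against 234 and 142, and 1201 and 1594 for the difference against 634 and 903; the replicate block gave 428 and 558 with IR in WT.

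Library sizes alone moved the median of all genes from 0.04 to 0.27 for IR in Tet2-/- (2860 higher and 1397 lower, against 2078 and 1895), from 0.04 to 0.14 after IR (428 and 495) and from 0.10 to 0.24 for the difference (1129 and 700).

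Signs turned in values that were not called. At baseline these were Car3 (0.51 without WT replicates 2 and 3, 0.91 with the covariate), Car4 (-0.005 with limma at either pseudocount), Car5a (0.067 with the replicate block) and Car5b (0.008 with the covariate), and with 1 library left out Car2 ranged from -0.26 to 0.05, Car4 from -0.10 to 0.31, Car5a from -0.34 to 0.30, Car12 from -0.46 to 0.059 and Car14 from -0.061 to 0.33. With IR in WT they were Car5a (-0.086 with limma at 0.1, -0.159 with the replicate block, -0.057 without both libraries, -0.018 with the covariate), Car5b (0.054 without both, 0.099 with the covariate) and Car9 (-0.002 and -0.009 with limma, -0.072 with the replicate block), and with 1 library left out Car5a ranged from -1.28 to 0.90, Car5b from -0.21 to 0.075, Car9 from -0.32 to 0.39 and Car12 from -0.42 to 0.075. Car3 with IR in Tet2-/- was 0.16 with library sizes alone, 0.011 in the single fit and -1.42 to 0.53 with 1 library left out, and its difference of IR effects went from 3.93 (adjusted p = 0.117) to -0.066 with the covariate. That difference for Car15 was -0.044 with DESeq2, -0.008 at a mean FPKM of at least 1, -0.067 over all deposited transcripts and -0.27 to 0.25 with 1 library left out. The cause was not tested. Car5a in Tet2-/- after IR rested on at most 19 counts a library, which limits its fold.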
